A study of Mus musculus with 192 samples.

Results

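The comparison described here set dendritic cells given Zymosan and SeV together (3 libraries) against cells given Zymosan alone (3 libraries) and against cells given SeV alone (3 libraries), 9 libraries from 3 of the study's 64 groups of 3. The libraries were assigned to groups by their ligand labels alone, while the gene lists and the groups compared were chosen with earlier results of these data known. All cells were bone marrow-derived dendritic cells, grown with the cytokine GM-CSF at 15 ng/mL from the marrow of female C57BL/6J mice aged 6 to 8 weeks, plated at 100000 cells per well and stimulated for 6 h. The full design held untreated cells (Ctrl), 7 single ligands, 21 pairs and 35 triplets of them, with RNA counted as unique molecular identifiers (UMIs, tags that mark single cDNA molecules). The labels number the replicates and do not say whether they came from separate cultures or animals. The p-values therefore rest on the spread between replicate libraries, which may be technical. That spread was estimated over all 64 groups fitted together, so it is not the spread of these 9 libraries alone. Cultures of this kind hold a mixture of cells, and in bulk RNA fewer cells of a type and less RNA per cell cannot be told apart.

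Zymosan is a preparation of yeast cell wall, and the form used was the depleted one, which is treated to remove what stimulates Toll-like receptors and is recognised mainly by Dectin-1, the product of Clec7a. Dectin-1 signals through the kinase Syk and the Card9, Bcl10 and Malt1 complex to NF-kB, and its engagement is known to induce inflammatory cytokines and neutrophil-attracting chemokines. SeV is the usual abbreviation of Sendai virus, an RNA virus sensed in the cytosol by RIG-I, which acts through the adaptor MAVS to induce interferon-β. Secreted interferon-β then acts on the same and neighbouring cells and induces a large group of antiviral genes through the interferon-stimulated response element. The comparison asks which genes take the level of one ligand, the other ligand, neither or both.

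Total counts of the pair libraries were 123597, 46564 and 209819, so replicate 2 was the shallowest library of the whole series, whose totals ran from 46564 to 610234 with a median of 171616. In that library 1 count was worth 19.9 CPM (the count scaled to a common library size), against 8.11 and 4.81 in the other pair libraries. The Zymosan libraries held 98931, 145967 and 198625 counts, the SeV libraries 98864, 123572 and 201825, and the Ctrl libraries 61823 to 89530. No 2 libraries of these groups held identical values. The chi-square per degree of freedom between pair replicate 2 and the other pair libraries was 1.90 and 1.91, against 1.11 to 1.44 for every other pair of libraries within these groups. Markers fitted the label of the cells in part: summed CPM of 10 dendritic cell markers was 3260 to 3369 in the pair, 3564 to 3764 with Zymosan, 3185 to 3441 with SeV and 2957 to 3255 in Ctrl, with Zbtb46 at 0 in the pair and in Ctrl. Divided by total counts alone, this sum was not lower in Ctrl (3440 to 3801) than in the pair (3253 to 3544). Macrophage markers (10 genes) reached 3236 to 3681 CPM in the pair, 3469 to 3775 with Zymosan, 3899 to 4198 with SeV and 4169 to 4349 in Ctrl, so the cultures cannot be described as dendritic cells only.

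Promoters of 5 genes that carry the patterns below are shown first, as RefSeq windows of build GRCm38.p6 from 250 bases before to 50 bases after the annotated start, each 5′ to 3′ on the gene's own strand. Capitals mark matches, on either strand, to the interferon-stimulated response element (GAAA, any 2 bases, then GAAA again), the antioxidant response element (TGACNNNGC) or the NF-kB consensus. Ifit1 (chr19:34640639-34640938, plus strand), an antiviral gene that followed SeV, holds 2 matches to the interferon-stimulated element:
Ifit1: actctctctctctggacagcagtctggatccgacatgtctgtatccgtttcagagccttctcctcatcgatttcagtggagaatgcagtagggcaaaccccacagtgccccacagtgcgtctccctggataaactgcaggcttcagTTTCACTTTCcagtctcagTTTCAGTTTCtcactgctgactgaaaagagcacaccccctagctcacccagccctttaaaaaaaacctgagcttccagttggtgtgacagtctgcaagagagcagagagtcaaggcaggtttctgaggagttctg
Srxn1 (chr2:152105274-152105573, plus strand), which encodes the antioxidant enzyme sulfiredoxin and was higher in the pair than with SeV and lower by less than 2-fold than with Zymosan, holds 1 match to the antioxidant element:
Srxn1: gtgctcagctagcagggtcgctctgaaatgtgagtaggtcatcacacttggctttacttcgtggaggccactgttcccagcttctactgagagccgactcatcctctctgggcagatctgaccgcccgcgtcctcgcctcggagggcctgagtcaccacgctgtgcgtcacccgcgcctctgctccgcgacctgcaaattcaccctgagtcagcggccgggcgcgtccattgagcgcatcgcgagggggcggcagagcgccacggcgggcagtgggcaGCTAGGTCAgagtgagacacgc
Cxcl2 (chr5:90903649-90903948, plus strand), a neutrophil-attracting chemokine that followed Zymosan, holds 2 overlapping matches to the NF-kB consensus:
Cxcl2: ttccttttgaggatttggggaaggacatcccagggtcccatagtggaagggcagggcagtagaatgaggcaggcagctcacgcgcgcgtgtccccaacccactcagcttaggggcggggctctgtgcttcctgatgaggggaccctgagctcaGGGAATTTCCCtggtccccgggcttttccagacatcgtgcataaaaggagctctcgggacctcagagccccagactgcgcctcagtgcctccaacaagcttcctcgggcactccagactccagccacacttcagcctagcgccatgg
Cxcl9 (chr5:92328030-92328329, minus strand), a T cell-attracting chemokine whose level in the pair lay between the singles, holds none of these letters in this window:
Cxcl9: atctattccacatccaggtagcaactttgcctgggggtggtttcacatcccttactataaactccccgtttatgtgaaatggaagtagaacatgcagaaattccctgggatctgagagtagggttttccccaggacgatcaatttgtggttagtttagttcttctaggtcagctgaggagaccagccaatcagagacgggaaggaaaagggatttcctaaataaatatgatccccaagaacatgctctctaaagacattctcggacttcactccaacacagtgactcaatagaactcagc
Ccrl2 (chr9:111057469-111057768, minus strand; the first of 3 windows listed for this gene, of which the other two hold no match to these motifs), a chemerin-binding receptor whose level in the pair was above both singles, holds 1 match to the antioxidant element and 1 to the NF-kB consensus:
Ccrl2: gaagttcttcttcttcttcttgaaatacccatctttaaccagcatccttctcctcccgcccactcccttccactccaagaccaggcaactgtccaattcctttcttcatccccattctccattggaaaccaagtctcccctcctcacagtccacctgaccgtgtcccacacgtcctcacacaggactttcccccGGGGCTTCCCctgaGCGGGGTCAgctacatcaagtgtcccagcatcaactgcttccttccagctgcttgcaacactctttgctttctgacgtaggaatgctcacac

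More genes differed between the pair and Zymosan than between the pair and SeV, and no gene passed the joint test, defined below, for lying 2-fold above or 2-fold below both single ligands. Of 4720 genes tested, 310 were higher (6.57%) and 72 lower (1.53%) in the pair than with Zymosan alone, at an adjusted p under 0.05 in the quasi-likelihood test of edgeR (adjusted after Benjamini and Hochberg) and at least a 2-fold difference. Against SeV alone 137 genes were higher (2.9%) and 57 lower (1.21%). Without the fold threshold these counts were 384 (8.14%) and 111 (2.35%) against Zymosan, and 204 (4.32%) and 99 (2.1%) against SeV. Against Ctrl 498 genes were higher (10.6%) and 240 lower (5.08%) with the pair, 495 (10.5%) and 242 (5.13%) with SeV alone, and 209 (4.43%) and 86 (1.82%) with Zymosan alone.

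Scaling by library size alone, in place of TMM factors, turned the split against Zymosan to 265 higher and 146 lower and that against Ctrl to 399 higher and 474 lower, as it moved the median log2 difference of all genes against Zymosan from -0.09 to -0.22. Without replicate 3 of every group, 256 genes were called against Zymosan and 81 against SeV. Without pair replicate 3 alone, 116 were called against SeV.

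**Figure D1:**
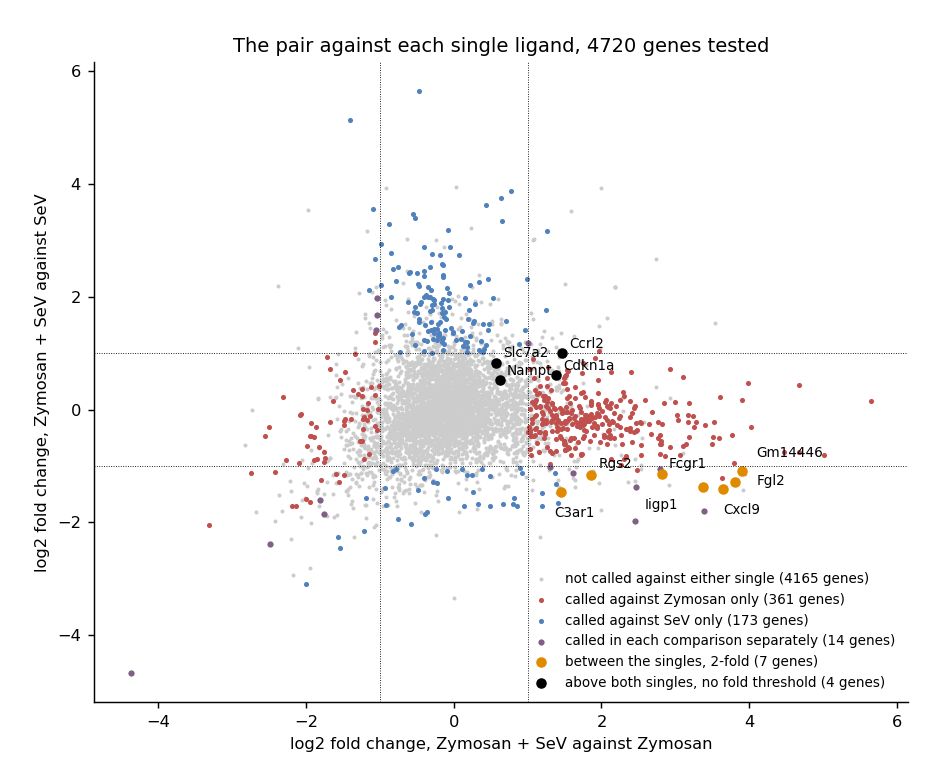
Log2 fold change of the pair against Zymosan alone (x axis) and against SeV alone (y axis), 1 point per tested gene (4720). Dotted lines mark 2-fold differences, the 310 genes higher than Zymosan lie mostly along the horizontal arm near 0 on the y axis, the 137 genes higher than SeV lie mostly along the vertical arm, and the 4 black points (above both with no fold threshold) are also counted in the other colours.

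A gene counted as above or below both singles when the larger of its 2 p-values, adjusted over all 4720 genes, was under 0.05 and both differences were at least 2-fold in the same direction. By edgeR this gave 0 genes above both and 0 below both (0% of those tested for each), with 10 above and 31 below at an unadjusted p under 0.05. DESeq2 also gave 0 and 0. With no fold threshold 4 genes were above both (0.0847%), Ccrl2, Cdkn1a, Nampt and Slc7a2, and 1 was below both (0.0212%), Marcks. Of 19 alternatives, this call was lost in 2 for Ccrl2, 10 for Cdkn1a, 12 for Nampt, 9 for Slc7a2 and 16 for Marcks, most of them leaving out libraries. When each comparison was adjusted on its own, Hbegf passed both as higher, and Elf4, Itpk1 and Mapkbp1 were among those that passed both as lower. Counted by libraries alone, all 3 pair libraries lay above all 6 single-ligand libraries for 74 genes (1.57%) and below all 6 for 100 genes (2.12%).

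The count of genes above both depended on single libraries by 1 or 2 genes. Ccrl2 was 2-fold above both after leaving out any 1 of Zymosan replicates 1, 2 and 3, SeV replicates 1 and 3 or pair replicate 2, and Socs3 joined it without Zymosan replicate 2. Thinning all libraries to the smallest total gave 1 gene above both and 0 below.

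Antiviral genes were higher in the pair than with Zymosan. All 15 tested genes of the interferon response list rose against Zymosan, with a median log2 difference of 3.04 (6.57% of all tested genes rose), whereas the median of all tested genes was -0.09. Against SeV the same 15 genes differed by -0.81 to 0.07 with a median of -0.22, when the median of all tested genes was -0.03, and 4 of them had an adjusted p under 0.05, all lower in the pair (2.1% of all tested genes were lower at any fold). In the text below, levels are CPM after scaling by effective library size, listed in the order of replicates 1, 2 and 3.

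Ifit1, which binds viral RNA that lacks a host cap, was at 4119, 3625 and 3536 CPM with SeV, at 3787, 3280 and 3292 with the pair, at 350, 570 and 210 with Zymosan and at 218 ± 29.1 (SD, n = 3) in Ctrl. The pair and SeV libraries overlapped, and every Zymosan library was far below both. The log2 difference of the pair was 3.24 ± 0.17 (SE) against Zymosan (adjusted p = 2.42e-43) and -0.12 ± 0.14 against SeV (adjusted p = 0.753). Rsad2, the antiviral enzyme viperin, had 8778 ± 297 CPM (SD, n = 3) with SeV, 8174 ± 1243 with the pair and a mean of 1012 with Zymosan, a log2 difference of 3.03 ± 0.17 (SE) against Zymosan (adjusted p = 8.45e-41). Isg15, a ubiquitin-like modifier, was at 1314, 1113 and 870 CPM with the pair and at 1032, 1096 and 976 with SeV, so these libraries overlapped too. Zymosan replicate 2 was the highest of its group for Ifit1 and Rsad2.

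Mx1, a gene of the interferon response list, was lower in the pair than with SeV. Its levels were 6001, 5158 and 5154 CPM with SeV, 3738, 2903 and 3700 with the pair, and 580, 832 and 429 with Zymosan. Every pair library was below every SeV library and above every Zymosan library. The pair was -0.63 ± 0.13 (SE) log2 units from SeV (adjusted p = 7.44e-05), less than 2-fold. Irf7, the transcription factor that amplifies interferon induction, showed the same order, at 1453, 1456 and 1402 CPM with SeV and 1046, 855 and 899 with the pair (log2 -0.61 ± 0.17, adjusted p = 0.0091).

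RNA sensors were among the genes higher than with Zymosan. Of 18 tested genes of the RIG-I and MAVS list, 10 rose against Zymosan (median of the list 1.49; 6.57% of all tested genes rose), and the list's median against SeV was -0.33. Ifih1, which encodes the RNA sensor MDA5, was at 1022, 795 and 817 CPM with the pair, at 1195, 1211 and 1210 with SeV and at 101, 134 and 135 with Zymosan. Ddx58, which encodes RIG-I itself, was at 487, 418 and 538 with the pair, 659, 667 and 624 with SeV and 55.2, 173 and 107 with Zymosan. In both genes all pair libraries lay below all SeV libraries, but the differences from SeV (log2 -0.45, adjusted p = 0.0795, and -0.38, adjusted p = 0.223) did not pass the test. Oas3, an enzyme that activates RNase L, overlapped between the pair (276, 318 and 365) and SeV (344, 299 and 356).

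Interferon-β itself was lower in the pair. Ifnb1 was the 1 interferon gene of 18 listed with enough counts to test. It had 248, 261 and 244 CPM with SeV, 178, 39.8 and 106 with the pair, and 0, 32.0 and 14 with Zymosan. The 3 SeV libraries were close together, and the pair libraries were spread over a wide range below them, with the shallow replicate 2 lowest. The log2 difference was 2.80 ± 0.54 (SE) against Zymosan (adjusted p = 1.58e-05) and -1.05 ± 0.32 against SeV (adjusted p = 0.0222). The fall against SeV no longer passed without SeV replicate 2, without SeV replicate 3, without pair replicate 2 or without pair replicate 3.

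Part of the antigen presentation, costimulation and cell death lists also rose against Zymosan. Of 16 tested genes of the MHC class I list 8 rose against Zymosan (median 1.07; 6.57% of all tested genes rose, and 2.9% against SeV), among them Tap1, a subunit of the peptide transporter, at 495, 298 and 356 CPM with the pair, 92, 141 and 88.6 with Zymosan and 487, 506 and 478 with SeV. The list's median against SeV was -0.07. The 9 tested MHC class II genes had medians of 0.07 against Zymosan and -0.11 against SeV, and 1 of them passed the test, being lower than with Zymosan by less than 2-fold (2.35% of all tested genes were lower at any fold). Of 17 maturation and costimulation genes 6 rose against Zymosan (Cd40, Cd86, Cd274, Il15, Il15ra and Cd69; median 0.56), and Ccl22 rose against SeV (list median 0.01), a call lost without SeV replicate 3. Cd274, which encodes the inhibitory ligand PD-L1, reached 1930, 1412 and 1735 CPM in the pair, 1175, 1364 and 1384 with SeV and 552, 704 and 420 with Zymosan. All pair libraries for Cd274 were above all single-ligand libraries, yet the difference from SeV was 0.39 log2 units (adjusted p = 0.046) and its joint adjusted p was 0.211. Of 16 cell death genes 6 rose against Zymosan (Casp1, Casp4, Casp8, Mlkl, Zbp1 and Tnfsf10; median 0.72), and the list's median against SeV was -0.17. The rise of Casp1 did not pass without Zymosan replicate 3.

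Part of the inflammatory list was higher in the pair than with SeV. Of 13 tested genes of the inflammatory list, 6 rose against SeV (Tnf, Il1a, Il1b, Cxcl1, Cxcl2 and Ptgs2), with a list median of 1.24, and 7 did not pass. Of all tested genes 2.9% rose against SeV. Against Zymosan the list's differences ran from -0.40 to 0.56, with a median of 0.10. Tnf, the acute inflammatory cytokine, was at 7266, 5507 and 6723 CPM with the pair, at 5494, 5420 and 5206 with Zymosan, at 1787, 1824 and 1768 with SeV and at 637, 1135 and 797 in Ctrl. All pair libraries were above all single-ligand libraries, by a narrow margin for replicate 2. The pair was 1.87 ± 0.17 (SE) log2 units above SeV (adjusted p = 3.72e-20) and 0.29 ± 0.16 above Zymosan (adjusted p = 0.262).

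Cxcl2, the neutrophil attractant shown above, was at 3057, 2306 and 2662 CPM with the pair, 3856, 3737 and 3196 with Zymosan and 526, 552 and 422 with SeV. Pair libraries were all below the Zymosan libraries and all above the SeV libraries. The difference was 2.46 ± 0.21 (SE) against SeV (adjusted p = 6.49e-22) and -0.40 ± 0.17 against Zymosan (adjusted p = 0.123). Il1b, which encodes interleukin-1β, had 860, 1193 and 913 CPM with the pair, 893, 928 and 858 with Zymosan and 506, 337 and 385 with SeV (log2 1.24 ± 0.17 against SeV, adjusted p = 6.29e-10). Il1a, the related cytokine, rose by 1.56 ± 0.19 against SeV (adjusted p = 1.17e-11), and Cxcl1, another neutrophil attractant, by 2.53 ± 0.47 (adjusted p = 1.46e-05). Ptgs2, the inducible cyclooxygenase, had 89.2, 99.4 and 159 CPM with the pair and 9.56, 38.3 and 46.9 with SeV, and its rise of 1.81 ± 0.48 (adjusted p = 0.00556) did not pass without SeV replicate 1 or without pair replicate 3.

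Il6 had 276, 298 and 178 CPM with the pair, 138, 166 and 159 with Zymosan and 182, 138 and 150 with SeV. The pair's lowest library overlapped the SeV libraries, and neither difference passed (log2 0.56, adjusted p = 0.198 against Zymosan and 0.57, adjusted p = 0.254 against SeV). Il12b, Il10 and Nos2 gave 4, 2 and 9 counts over the 3 pair libraries, and none of their differences passed at this depth.

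**Figure D2:**
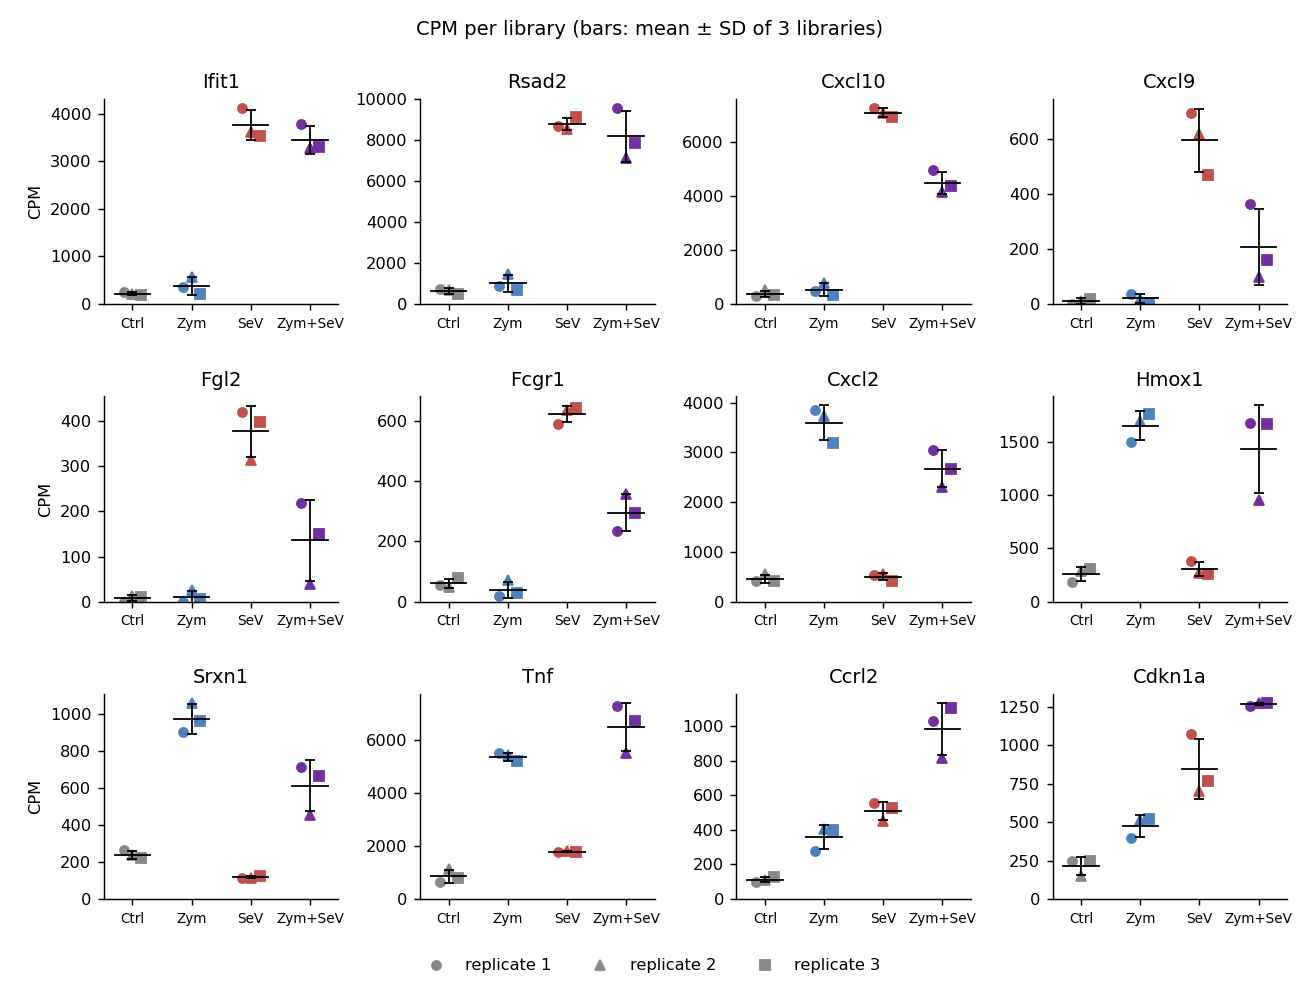
CPM (y axes, each starting at 0) of 12 genes in each library of Ctrl, Zymosan, SeV and the pair. Symbols mark the replicate and bars the mean ± SD of 3 libraries. Ifit1 and Rsad2 of the pair lie at the SeV level, Hmox1 overlaps the Zymosan level, Cxcl9, Fgl2 and Fcgr1 lie between the singles, and Ccrl2 and Cdkn1a lie above both.

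Oxidative stress genes were another list with members higher than with SeV. Of 16 tested genes of the list of Nrf2 targets (Nrf2 is the transcription factor that acts at the antioxidant response element), 9 rose against SeV: Hmox1, Gclc, Gclm, Srxn1, Txnrd1, Slc7a11, Sqstm1, Mt1 and Mt2. The list's median against SeV was 1.29, and all 16 differences were above 0 (2.9% of all tested genes rose). Against Zymosan the median was -0.39, with 15 of 16 differences below 0 and 3 genes that passed as lower if any size of fall was accepted (2.35% of all tested genes), and Gclc, a subunit of the enzyme that starts glutathione synthesis, fell by 1.04 (adjusted p = 0.0267).

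Hmox1, which encodes the haem-degrading enzyme heme oxygenase 1, was at 1679, 954 and 1667 CPM with the pair, 1500, 1702 and 1768 with Zymosan and 382, 268 and 263 with SeV. The pair overlapped Zymosan and lay wholly above SeV, with replicate 2 lowest. Against SeV the difference was 2.35 ± 0.21 (SE, adjusted p = 8.18e-20). Srxn1 was at 714, 457 and 668 CPM with the pair, 902, 1062 and 961 with Zymosan, 115, 115 and 127 with SeV and 263, 237 and 221 in Ctrl. Here the pair libraries were wholly below Zymosan and wholly above SeV, and the SeV libraries were below Ctrl. The pair differed by 2.41 ± 0.24 from SeV (adjusted p = 8.49e-17) and by -0.60 ± 0.17 from Zymosan (adjusted p = 0.00953).

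Txnrd1, a thioredoxin reductase, repeated that order at 1322, 1113 and 1446 CPM with the pair, 1914, 2240 and 1973 with Zymosan and 277, 452 and 333 with SeV. Its joint adjusted p for lying below Zymosan and above SeV was 0.0295, with a difference from Zymosan of -0.62 ± 0.16 (SE). Cxcl3, a neutrophil attractant, Cd14, the lipopolysaccharide co-receptor, and Alas1, which starts haem synthesis, were the other 3 genes placed below Zymosan and above SeV when no fold was required. Cxcl3 had 795, 756 and 942 CPM with the pair, 1914, 1497 and 1670 with Zymosan and 182, 169 and 197 with SeV.

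Glycolysis genes gave a similar count. Of 20 tested genes of the glycolysis and hypoxia list, 9 rose against SeV (Hk2, Gpi1, Pfkl, Tpi1, Pgk1, Pgam1, Slc2a1, Slc16a3 and Bnip3), with a median of 1.10, and 11 did not pass (2.9% of all tested genes rose). Against Zymosan the list's median was -0.18, with 1 gene higher (Hk3) and 1 lower (Pdk1), beside 6.57% and 1.53% of all tested genes. Pgk1, a phosphoglycerate kinase, had 1273, 1392 and 1658 CPM with the pair, 1675, 1446 and 1763 with Zymosan and 736, 529 and 661 with SeV, so that the pair overlapped Zymosan alone (log2 1.19 ± 0.16 against SeV, adjusted p = 1.39e-09). Slc2a1, the glucose transporter, reached 349, 497 and 452 CPM with the pair and 134, 153 and 145 with SeV.

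Clec7a, the receptor gene, was lowest in the pair. It had 592, 457 and 605 CPM with the pair, 745, 787 and 746 with Zymosan, 793, 927 and 877 with SeV and 1122, 910 and 893 in Ctrl. All pair libraries were below all single-ligand and Ctrl libraries. The difference was -0.60 ± 0.17 against SeV (adjusted p = 0.0094) and -0.41 ± 0.17 against Zymosan (adjusted p = 0.107), so it did not count as below both.

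Of 23 tested genes of the Dectin-1 and Syk list, 2 rose (Clec4e and Malt1) and 1 fell (Plcg2) against SeV (list median 0.23), and 1 rose (Ptpn6) and 1 fell (Egr2) against Zymosan (list median -0.20). Of all tested genes 2.9% rose and 1.21% fell against SeV, and 6.57% rose and 1.53% fell against Zymosan. Clec4e, the receptor Mincle, was at 2368, 1829 and 2225 CPM with the pair, 2798, 2803 and 2459 with Zymosan and 602, 667 and 549 with SeV (log2 1.86 ± 0.13 against SeV, adjusted p = 3.64e-29). Malt1, the paracaspase of the Card9 complex, had 341, 239 and 308 CPM with the pair and 115, 61.3 and 70.4 with SeV, and its rise was 1.96 ± 0.26 (adjusted p = 7.46e-10). The rise of Ptpn6 did not pass without Zymosan replicate 3 or without pair replicate 1, nor with library size scaling. The fall of Egr2 did not pass without Zymosan replicate 3 or without pair replicate 1.

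Cytokine and chemokine lists held genes that rose in each comparison. Of 22 tested cytokine genes, 5 rose against Zymosan (Il15, Il18, Tnfsf10, Tnfsf15 and Hbegf; median 0.50) and 8 rose against SeV (Il1a, Il1b, Il1rn, Tnf, Inhba, Vegfa, Hbegf and Edn1; median 1.08). Of 20 chemokine genes, Ccl4, Ccl5, Ccl12, Cxcl9, Cxcl10 and Cxcl11 rose against Zymosan (median 0.58). Against SeV, Ccl22, Cxcl1, Cxcl2 and Cxcl3 rose and Ccl2, Ccl12 and Cxcl9 fell (median 0.20). Of all tested genes 6.57% rose against Zymosan, and 2.9% rose and 1.21% fell against SeV.

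Cxcl10, a T cell attractant, was at 7263, 7105 and 6923 CPM with SeV, 4963, 4175 and 4373 with the pair and 497, 781 and 331 with Zymosan. The pair libraries sat wholly below SeV and wholly above Zymosan (log2 -0.65 ± 0.17 against SeV, adjusted p = 0.00557). Ccl4, which attracts monocytes and T cells, was at 5011, 3817 and 4089 CPM with the pair, 1675, 1561 and 1432 with Zymosan and 3383, 3035 and 2964 with SeV, all pair libraries being highest. Its difference from SeV was 0.47 ± 0.16 (adjusted p = 0.0531). Its neighbour Ccl3 had 2084, 1968 and 1840 CPM with the pair, 1454, 1337 and 1208 with Zymosan and 1195, 1104 and 1013 with SeV, again with no overlap. Ccl3 was 0.56 ± 0.17 above Zymosan (adjusted p = 0.0115) and 0.84 ± 0.17 above SeV (adjusted p = 0.000105), with a joint adjusted p of 0.0943. Ccl5 overlapped between the pair (5320, 6283 and 5252 CPM) and SeV (5963, 5105 and 4915 CPM).

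The remaining lists are given by their called genes, which stand beside 6.57% of all tested genes higher and 1.53% lower than with Zymosan, and 2.9% higher and 1.21% lower than with SeV. Of 25 genes for NF-kB subunits and feedback, Socs1 rose against Zymosan (list median 0.10), and Nfkbid, Tnip1 and Socs3 rose against SeV (list median 0.27). Among 17 immediate early and AP-1 genes, Batf2 and Klf6 rose and Fosl2 and Egr2 fell against Zymosan (median 0.21), and Maff rose against SeV (median 0.34). Among 16 cholesterol genes, Ch25h rose and Sqle fell against Zymosan (median -0.19) and Abcg1 fell against SeV (median 0.07). Ctsc rose against Zymosan among 23 lysosomal genes (medians 0.13 and, against SeV, -0.07), Irg1 among 6 genes of arginine, nitric oxide and itaconate metabolism (0.64 and 0.52), and Ccnd2 and Cdkn1a among 7 cell cycle genes (1.17 and -0.55). Ptgs2 rose against SeV among 9 prostanoid and leukotriene genes (medians -0.16 against Zymosan and -0.13 against SeV). The 8 tested genes of the endoplasmic reticulum stress list had medians of 0.03 and 0.61, and without a fold threshold 1 was lower than with Zymosan (2.35% of all tested genes) and 2 were higher than with SeV (4.32%). Each of the calls for Nfkbid, Tnip1, Socs3, Maff, Fosl2 and Sqle was lost without replicate 3 of every group. By single libraries, SeV replicate 3 ended the calls of Socs3 and Maff, pair replicate 3 those of Socs3 and Sqle, Zymosan replicate 3 that of Sqle, and SeV replicate 2 or pair replicate 2 that of Abcg1.

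**Figure D3:**
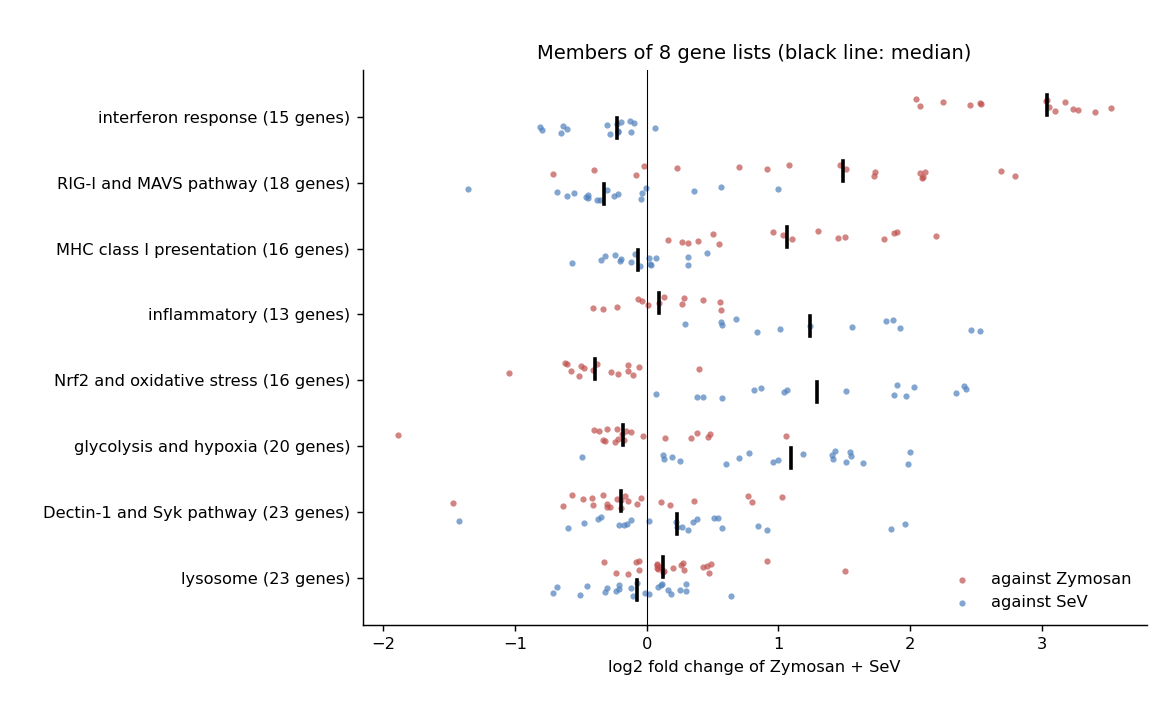
Log2 fold change of the pair (x axis) for each tested member of 8 gene lists, against Zymosan (red) and against SeV (blue), with black lines at the medians. Interferon response genes lie between 2.05 and 3.53 against Zymosan and between -0.81 and 0.07 against SeV, and inflammatory, Nrf2 and glycolysis genes have medians of 0.10, -0.39 and -0.18 against Zymosan and lie mostly above 0 against SeV.

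The 3 motifs were then counted in the promoters of the genes higher in each comparison. Windows were found for 228 of the 310 genes higher than with Zymosan and for 108 of the 137 genes higher than with SeV. The interferon-stimulated element was present in 17.9% of 290 windows of the first group and 3.31% of 151 windows of the second, beside 4.04% of 4682 windows of all tested genes and 3.44% of all 32851 windows in the table. The antioxidant element was present in 12.8% and 15.2% of the same windows, beside 15.4% for tested genes, and the NF-kB consensus in 12.4% and 11.9%, beside 10.7%. These shares are descriptions without a test, and a match is not evidence of binding.

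Large single-gene differences followed the same division in part. The 4 largest falls against SeV by the naming rule (Mapkbp1, Polb, Krcc1 and Itpk1) had lower means in the pair than with either single. For Polb the means were 4.30 CPM with the pair, 25.5 with Zymosan and 53.7 with SeV, and for Krcc1 9.11, 36.4 and 77.4. None of them passed the joint test for lying below both singles. I830012O16Rik rose most against Zymosan among genes named by the rule given under processing, at 381, 258 and 380 CPM with the pair, 526, 659 and 685 with SeV and 0, 19.2 and 9.33 with Zymosan (log2 5.01 ± 0.45, adjusted p = 4.30e-21). Its pair libraries were all below its SeV libraries. Serpina3f (4.47), Rhoh (4.03) and Oas1g (3.99) were next. Rhoh and Oas1g each had 1 count over the 3 Zymosan libraries and 17 in the pair, a ratio of 21.3 with an exact 95% counting interval of 3.34 to 892. The rise of Rhoh did not pass without pair replicate 1.

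Gdf15, a stress-induced cytokine, rose most against SeV. It had 154, 79.5 and 163 CPM with the pair, 239, 211 and 173 with Zymosan, and 1 count over the 3 SeV libraries, a ratio of pair to SeV of 66.9 with a counting interval of 11.5 to 2690. The pair libraries were all below Zymosan for this gene. Scd2, a fatty acid desaturase, was among the genes that fell most against Zymosan, at 24.3, 0 and 28.8 CPM with the pair, 138, 102 and 159 with Zymosan and 38.2, 15.3 and 32.8 with SeV (log2 -2.49 ± 0.53, adjusted p = 0.00013), so that the pair overlapped SeV.

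In 7 genes (0.148% of those tested) the pair lay 2-fold above Zymosan and 2-fold below SeV: Cxcl9, Iigp1, Fcgr1, Fgl2, C3ar1, Rgs2 and Gm14446. In each of them SeV alone gave the highest level and adding Zymosan lowered it. No gene was 2-fold on the other side, below Zymosan and above SeV, although Cxcl3 and Ptgr1 were with library size alone, Cxcl3 and Srxn1 after thinning, and Cxcl3, Gclc, Ptgr1 and Ccdc88a with only the groups compared. On that side 4 genes were placed there (Cxcl3, Cd14, Txnrd1 and Alas1) when no fold was required, beside 17 genes above Zymosan and below SeV, together 0.445% of those tested.

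Cxcl9 was at 698, 621 and 469 CPM with SeV, at 365, 99.4 and 159 with the pair and at 36.8, 19.2 and 4.67 with Zymosan. All pair libraries fell between the single-ligand libraries, replicate 1 being highest. The pair was 3.65 ± 0.46 (SE) above Zymosan (adjusted p = 6.00e-12) and -1.40 ± 0.24 from SeV (adjusted p = 1.77e-06). Iigp1, an interferon-inducible GTPase that attacks the membrane around intracellular pathogens, had 822, 605 and 530 CPM with SeV, 300, 239 and 207 with the pair and 9.20, 32.0 and 23.3 with Zymosan. The 3 groups did not overlap, and the pair was -1.38 ± 0.24 from SeV (adjusted p = 2.17e-06).

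Fcgr1, the high-affinity IgG receptor, was at 592, 636 and 643 CPM with SeV, 235, 358 and 293 with the pair and 18.4, 70.4 and 28.0 with Zymosan (-1.14 ± 0.25 against SeV, adjusted p = 0.000326). It is also a macrophage marker, and the other 9 macrophage markers summed to 3000.4 to 3388 CPM in the pair and 3307 to 3555 with SeV, ranges that overlap. The part of that difference in the result was not tested. Fgl2, a fibrinogen-like protein that is secreted or held on the membrane, had 420, 314 and 399 CPM with SeV, 219, 39.8 and 149 with the pair and 0, 25.6 and 4.67 with Zymosan (-1.28 ± 0.31 against SeV, adjusted p = 0.00184).

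C3ar1, the receptor for the complement fragment C3a, was at 401, 552 and 497 CPM with SeV, 146, 139 and 211 with the pair, 36.8, 64.0 and 79.3 with Zymosan and 83.1, 274 and 278 in Ctrl. Rgs2, a regulator of G protein signalling, was at 459, 728 and 675 with SeV, 349, 278 and 235 with the pair, 46, 109 and 70.0 with Zymosan and 311 ± 119 (SD, n = 3) in Ctrl. In these 2 genes Zymosan alone lay below Ctrl and the pair overlapped Ctrl, unlike Cxcl9, Fgl2 and Fcgr1, which had at most 76.8 CPM in any Ctrl library. Gm14446 completed the group with 722, 398 and 529 CPM in the pair and 1214, 1318 and 1135 with SeV.

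Joint calls in this group rested on few libraries, while the separate calls of Cxcl9, Iigp1 and Fcgr1 against each single held in all 16 alternatives. The count between the singles was 0 without pair replicate 3, as it was without replicate 3 of every group, and 5 without pair replicate 2. It was 3 without replicate 2 of every group and 15 when only the groups compared were fitted, 4 of them below Zymosan and above SeV. Against SeV the call of Rgs2 was lost without pair replicate 3 and that of Gm14446 without pair replicate 2, and against Zymosan that of C3ar1 was lost without pair replicate 3.

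The same addition was then read in libraries that had not entered the pair comparison, where another ligand was present in the combination and in both of its parts. With HMW (as abbreviated in the labels), 1 gene, Mafk, was 2-fold above both (0.0212%) and 0 were below both, with 7 genes between (0.148%), or 28 with no fold threshold (0.593%), and with 4 genes above both and 12 below at an unadjusted p under 0.05. With PAM the numbers were 0, 0 and 12 of the 4720 genes tested, and with LPS, cGAMP or CpGB they were 0, 0 and 0. Of the 7 genes between the singles in the pair itself, 4 were again between with HMW and 1 with PAM. At an unadjusted p under 0.05 by edgeR, the only tool run on these 4 sets, 8, 4, 4 and 13 genes were above both and 17, 14, 9 and 34 below both with PAM, LPS, cGAMP and CpGB. The call of Mafk was not made by DESeq2, which was run on the HMW set, nor after thinning, and it was lost without replicate 2 or 3 of HMW with SeV, replicate 2 or 3 of HMW with Zymosan, or replicate 1 or 3 of the triplet.

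All 7 genes between the singles were lower on adding Zymosan to SeV in each of these 5 settings by the sign of the difference. The medians of the 7 log2 differences were -1.16 with HMW, -1.17 with PAM, -0.56 with LPS, -0.35 with cGAMP and -0.89 with CpGB. With HMW 5 of the 7 passed as lower (0.847% of all genes did), and with PAM 4 of 7 (1.42%). With LPS, cGAMP and CpGB 0 of the 7 passed by edgeR at 2-fold (0.254%, 0.0636% and 1.1% of all genes did), though C3ar1 with CpGB had an adjusted p of 0.0241 at a log2 difference of -0.89. At an unadjusted p under 0.05, 4, 2 and 4 of the 7 were lower (5.66%, 4.26% and 7.56% of all genes were). For Cxcl9 the change was -1.78 ± 0.21 (SE) with HMW (adjusted p = 9.84e-13), -2.75 ± 0.33 with PAM (adjusted p = 1.40e-11), -0.76 ± 0.25 with LPS (adjusted p = 0.0596), -0.18 ± 0.18 with cGAMP (adjusted p = 0.832) and -1.33 ± 0.45 with CpGB (adjusted p = 0.0531). Ifnb1 changed by -1.24 ± 0.29 with HMW (adjusted p = 0.00106) and by 0.50 with cGAMP (adjusted p = 0.353).

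**Figure D4:**
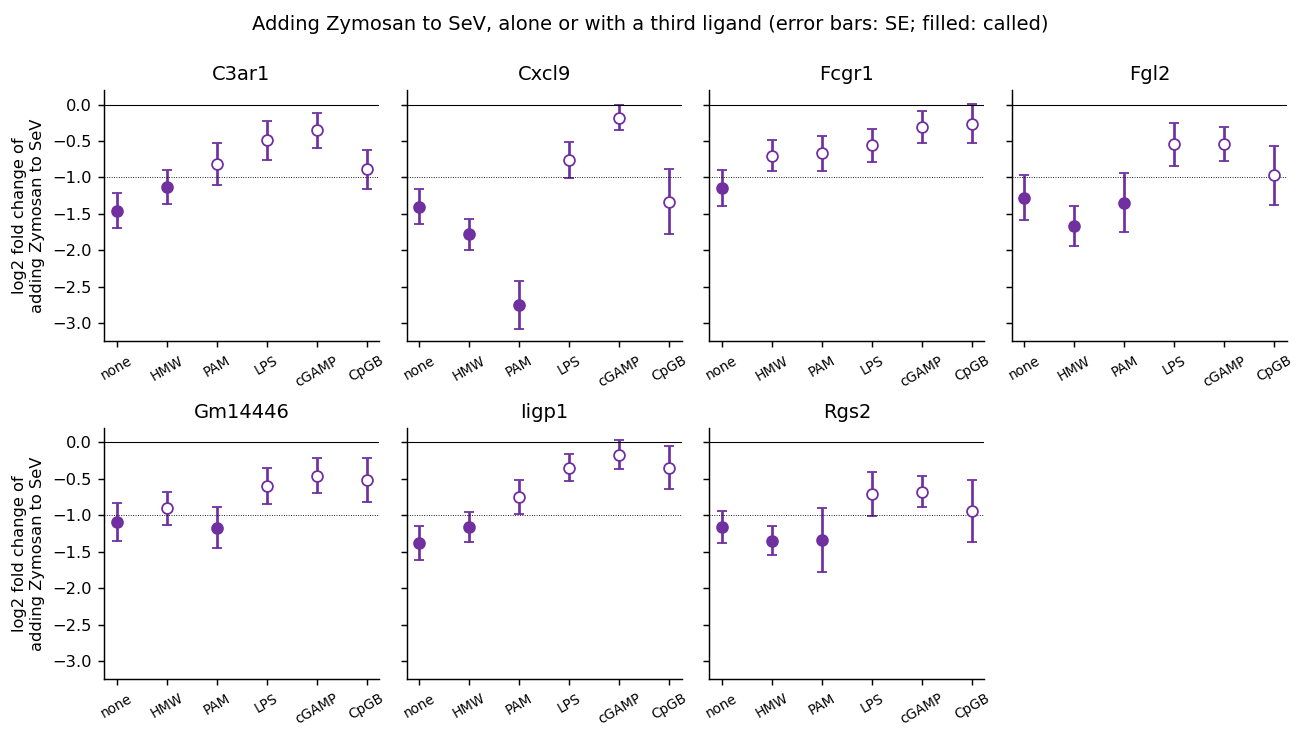
Log2 fold change on adding Zymosan to SeV (y axis) for the 7 genes between the singles, with no further ligand and with HMW, PAM, LPS, cGAMP or CpGB present throughout (x axis). Error bars are SE, filled points passed the adjusted p and 2-fold thresholds, the dotted line marks a 2-fold fall, and the PAM point of Cxcl9 at -2.75 is the lowest.

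Part of the genes raised by Zymosan recurred in each of the 5 settings, counted separately, and most of those raised by SeV recurred with PAM. Of the 137 genes higher in the pair than with SeV, adding Zymosan to SeV again raised 80 with HMW (58.4%, against 2.73% of all genes), 56 with PAM (2.31% of all), 43 with LPS (1.69%), 17 with cGAMP (0.678%) and 59 with CpGB (2.33%). With CpGB 1 of the 137 was called lower (1.1% of all genes were). Of the 310 genes higher in the pair than with Zymosan, adding SeV to Zymosan raised 221 with PAM (6.89% of all genes) and 103 with HMW (2.8%). With CpGB it raised 1 of the 310 (0.0212% of all genes), and with LPS and with cGAMP it raised 0 of any genes by edgeR (0%), with 225 and 270 genes at an unadjusted p under 0.05 in either direction. Of the 72 genes lower than with Zymosan and the 57 lower than with SeV, those called lower again were 4 and 14 with HMW (0.381% and 0.847% of all genes) and 12 and 8 with PAM (1.36% and 1.42%). They were 0 and 1 with LPS (0% and 0.254%), 0 and 1 with cGAMP (0.0212% and 0.0636%) and 0 and 2 with CpGB (0.0424% and 1.1%) by edgeR, where 1, 1 and 5 of the 72 (2.35%, 3.03% and 3.39% of all genes) and 17, 17 and 13 of the 57 (5.66%, 4.26% and 7.56%) were lower at an unadjusted p under 0.05.

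Genes above both singles without a fold threshold were few and of mixed function. Ccrl2 was at 1030, 815 and 1105 CPM with the pair, 554, 452 and 525 with SeV, 276, 403 and 397 with Zymosan and 97, 112 and 125 in Ctrl. Every single-ligand library was above every Ctrl library, and every pair library was above them all. The pair was 1.47 ± 0.19 (SE) above Zymosan (adjusted p = 9.04e-12) and 0.995 ± 0.18 above SeV (adjusted p = 7.06e-06), just under the 2-fold threshold, with a joint adjusted p of 0.000125.

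Cdkn1a, which encodes the cell cycle inhibitor p21, was at 1257, 1272 and 1273 CPM with the pair, 1070, 705 and 764 with SeV and 396, 512 and 523 with Zymosan. The pair libraries were nearly equal and all above the rest (1.38 ± 0.16 above Zymosan and 0.61 ± 0.15 above SeV, joint adjusted p = 0.0295). Nampt, the enzyme that limits NAD salvage, had 1403, 1292 and 1172 CPM with the pair, 1195, 736 and 807 with SeV and 893, 928 and 704 with Zymosan, where pair replicate 3 fell below SeV replicate 1 (joint adjusted p = 0.0202). Slc7a2, a transporter of arginine and other cationic amino acids, had 673, 954 and 702 CPM with the pair, 506, 563 and 439 with Zymosan and 468, 429 and 375 with SeV, with no overlap (joint adjusted p = 0.0295).

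Of these 4 genes Ccrl2 was the one above both parts again with HMW, at 1118 CPM (mean of 3) with the triplet and 616 with each part, a rise of 0.85 on adding SeV and 0.84 on adding Zymosan (joint adjusted p = 0.000604). With PAM the Ccrl2 difference on adding Zymosan was 0.00 (adjusted p = 0.99), where PAM with SeV already gave 1168 CPM.

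Marcks, an actin-binding substrate of protein kinase C, passed as below both with no fold threshold, at 138, 199 and 235 CPM with the pair, 488, 326 and 252 with Zymosan, 325, 414 and 460 with SeV and 374, 349 and 365 in Ctrl. All pair libraries were lowest. The difference was -0.78 ± 0.21 (SE) against Zymosan (adjusted p = 0.00438) and -1.05 ± 0.20 against SeV (adjusted p = 3.48e-05), and the joint adjusted p was 0.0453. The joint call was lost in 16 of 19 alternatives, DESeq2 among them. Its 2-fold call against SeV did not hold without SeV replicate 3 or pair replicate 1.

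Hbegf, an epidermal growth factor receptor ligand, was at 170, 119 and 168 CPM with the pair, 73.6, 96.0 and 70.0 with Zymosan and 47.8, 53.7 and 93.8 with SeV. Its pair libraries were above all others (1.01 ± 0.36 and 1.18 ± 0.37, adjusted p = 0.0478 and 0.0286), and the joint adjusted p was 0.313. Genes that passed each comparison separately as lower were near the limit of counting. Mapkbp1 had 0 counts in the pair against 7 with Zymosan and 8 with SeV, and Itpk1 had 16.2, 19.9 and 0 CPM in the pair.

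A test of departure from adding the log2 effects of both ligands compared the pair with Zymosan plus SeV minus Ctrl. It found 42 genes, 38 below the added effects (0.805%) and 4 above (0.0847%: Smim14, Sepp1, H3f3a and Atg7). Irg1, which makes the antimicrobial metabolite itaconate, was at 2660, 2644 and 2768 CPM with the pair, 2599, 2184 and 2125 with SeV, 1058, 1427 and 1008 with Zymosan and 402, 474 and 365 in Ctrl. The pair libraries lay at or just above the SeV libraries, and every Zymosan library was also above Ctrl, a departure of -1.26 ± 0.20 log2 units (SE, adjusted p = 5.96e-06).

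Nampt departed by -1.39 ± 0.23 (adjusted p = 9.59e-06), although its level in the pair was above both singles. Pnp, a purine salvage enzyme, had 1987, 1630 and 2071 CPM with the pair, 2332, 2299 and 1956 with SeV, 451, 717 and 569 with Zymosan and 194, 274 and 307 in Ctrl, and departed by -1.32. Further departures were -2.29 for Ifi203, -1.92 for Rtp4, -1.30 for Mx1 and -0.95 for Clec4e. Of the 15 interferon response genes 14 had a departure below 0 and 3 passed the test, beside 2493 and 42 of all 4720 genes. Sepp1, a selenium carrier, was above at 641, 736 and 505 CPM with the pair and 350, 416 and 247 with Zymosan. The departure of Sepp1 was lost in 14 of 22 alternatives, among them leaving out any 1 of the 3 Ctrl libraries, Zymosan replicate 1 or 3, SeV replicate 1 or 3, or pair replicate 1 or 2.

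The number of departures ranged from 2 (without replicate 2 of every group) to 60 (without Zymosan replicate 3) with libraries left out, and was 65 with no filter on low counts. It was 6 without Ctrl replicate 1, 11 without Ctrl replicate 3, 8 without Zymosan replicate 2, 12 with DESeq2 (5 above and 7 below) and 5 after thinning. With RLE factors it was 21 (8 above and 13 below), and the median departure of all genes went from -0.05 to 0.07. Irg1 and Nampt passed in every alternative run, Pnp in all but the fit without replicate 2 of every group, and Mx1 was also lost without Zymosan replicate 2.

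**Figure D5:**
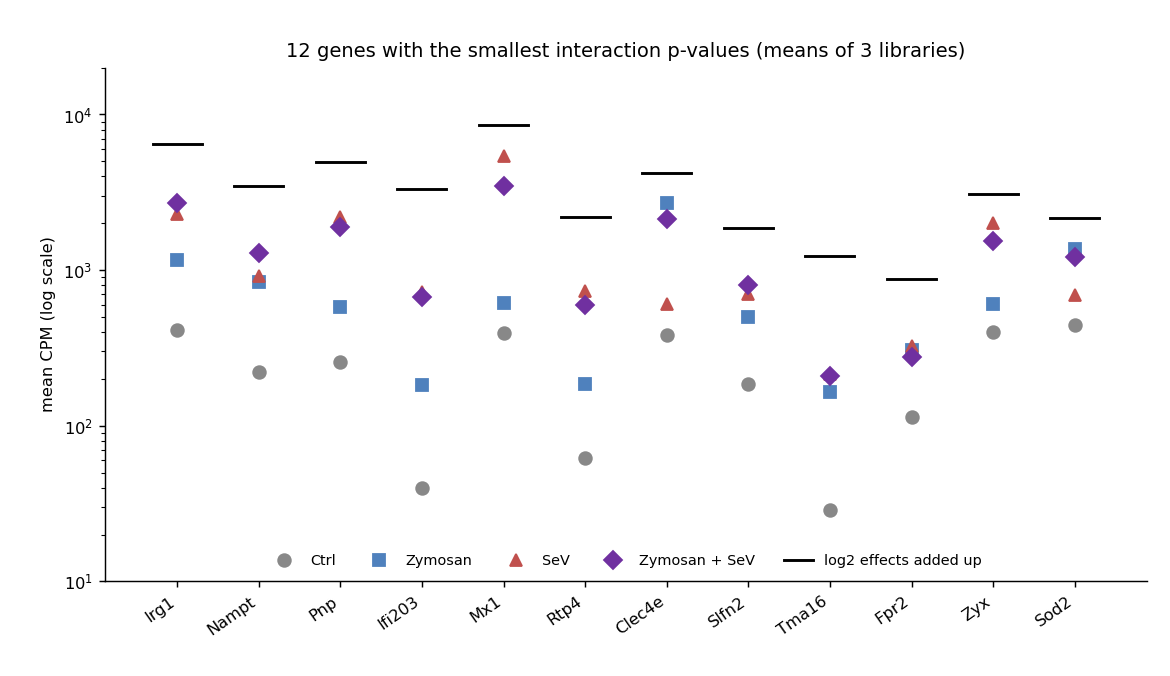
Mean CPM of 3 libraries (log scale) in Ctrl, Zymosan, SeV and the pair for the 12 genes with the smallest p-values for departure from added log2 effects. Black bars mark the level that adding the 2 log2 effects would give, and in all 12 genes the pair lies below its bar.

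Of the other pairs with Zymosan or SeV, those of Zymosan with cGAMP and of PAM with SeV were counted in the same way and gave more genes above both parts, though they also share the single-ligand libraries, and the difference between these counts was not itself tested. Of the 4720 genes tested, 33 were 2-fold above both parts and 4 below for Zymosan with cGAMP, a ligand of STING. For PAM with SeV 34 were above and 4 below. The first set included Ccl3, Ccl4, Hbegf and Ifnb1, and the second Ccl3, Ccl4, Ccl5, Ccrl2, Il6, Il1a, Nos2, Ptgs2 and Irg1. Thinned to the smallest total these counts were 8 and 4 with cGAMP and 14 and 1 with PAM, and without replicate 3 of every group 11 and 29 genes were above both.

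Direct tests with groups that share no library compared what each ligand added. Adding Zymosan to SeV and to cGAMP differed in 7 genes, 3 higher (0.0636%) and 4 lower (0.0847%) with SeV. The log2 effect of added Zymosan with SeV minus that with cGAMP was -1.69 ± 0.31 (SE) for Cxcl9 (adjusted p = 0.000541) and -2.14 ± 0.41 for Ifnb1 (adjusted p = 0.000541). Both were lost without pair replicate 3. Slco3a1 (-1.98) and Serpina3g (-1.06) were the other lower genes, and Rassf4 (1.38), Hvcn1 (1.27) and H2-M2 (1.06) were higher. The calls of Slco3a1, Serpina3g, Hvcn1 and H2-M2 were lost in 11, 15, 13 and 15 of 22 alternatives, many of them leaving out 1 library, and that of Rassf4 without pair replicate 3. Scaled by RLE factors or by library size alone, 4 genes were higher and 3 lower. Without pair replicate 1 the count was 11, and without replicate 3 of every group it was 0.

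Adding SeV to Zymosan and to PAM differed in 14 genes, all lower with Zymosan (0.297%). They included G530011O06Rik (-2.66), Ccl4 (-1.14 ± 0.23 SE, adjusted p = 0.00351), Il1rn (-1.15, adjusted p = 0.00351), Cxcl10 (-1.32, adjusted p = 0.00910), Il6 (-1.24, adjusted p = 0.0380), Ptgs2 (-1.72, adjusted p = 0.0380) and Pim1 (-3.10, adjusted p = 0.00402). The calls of Il6 and Ptgs2 were lost in 13 and 15 of 22 alternatives, among them leaving out any 1 of the Zymosan libraries, those of G530011O06Rik in 9, Ccl4 and Pim1 in 6, Cxcl10 in 5 and Il1rn in 4. The count was 0 without replicate 2 of PAM with SeV and 0 after thinning to the smallest total.

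Markers of other cells were measured in the same groups. Neutrophil markers summed to 477 to 793 CPM in the pair, 858 to 939 with Zymosan, 821 to 965 with SeV and 691 to 942 in Ctrl. Elane and Mpo were both at 0 in the pair and in Ctrl, as was Elane with Zymosan and Mpo with SeV. The pair lay below both singles and overlapped Ctrl, which it did not (515 to 786 against 804 to 1100) when sums were divided by total counts alone. Mmp8, a neutrophil collagenase, was lower in the pair than with SeV (24.3, 59.6 and 28.8 against 95.6, 76.6 and 108 CPM, adjusted p = 0.0155). That call was lost without SeV replicate 3 and without pair replicate 1 or 3. Mmp8 was the 1 gene called of 7 tested neutrophil markers, beside 1.21% of all tested genes lower than with SeV. Of the 7 differences from SeV, 2 were above 0 and 5 below. B cell markers reached at most 36.8 CPM, T and NK cell markers 32.4 with 7 of 8 genes at 0 in the pair, mast cell and basophil markers 38.4 and stromal markers 42.2, and all erythroid markers were at 0. The part of these cells in the results was not tested.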

How the data were processed

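Counts of UMIs per gene were deposited by the authors for every library of the 64 groups. Per the submitters' processing notes BWA 0.7.15 and the mouse build mm10 were used, and the annotation, the collapsing of UMIs and how multi-mapped reads were handled are not given in the sources used here, so genes with near-identical copies (such as Gm14446 or the Ifi and Oas families) are uncertain. Per the labels' protocols cDNA was made by template switching, pooled and made into Nextera XT libraries.

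From these counts all libraries were fitted together with edgeR 4.0.16 (limma 3.58.1, R 4.3.3): 1 coefficient per group, TMM scaling, filterByExpr (4720 of 23481 genes kept, holding 95.7% of UMIs; 8619 genes had no count), quasi-likelihood F-test with 128 residual degrees of freedom, Benjamini-Hochberg adjustment over all 4720 genes, and calls at an adjusted p under 0.05 with a log2 difference of at least 1 unless stated. The procedure was also run on simulated counts, with an outcome not given here. Those counts were drawn with the shared spread, so they carry no extra spread of single libraries. Joint calls adjust the larger of both p-values. CPM use effective library sizes. Counting intervals are exact at 95% and cover counting error only.

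The gene lists and groups were chosen with earlier results of these data known. Named genes were the largest differences from each single with at least 20 CPM and no overlap of libraries (4 up, 4 down), the 5 most negative and 3 most positive departures, up to 4 genes between the singles, a fixed set of 17 genes, up to 4 called genes per list, and the 4 smallest p-values per direction of the unequal-effect tests. The fixed set held cytokines, chemokines, a receptor, antiviral genes and enzymes. Ccrl2, Cdkn1a as a gene above both, Nampt, Slc7a2, Marcks, Rgs2, Gm14446, Hbegf, Elf4, Cxcl3, Cd14, Alas1, Pnp, Ifi203, Rtp4, H3f3a, Mafk and other members of short counts fell outside that rule or were singled out after their values were seen. Alternatives were no fold threshold, no filter, DESeq2 1.42.0, RLE factors, library size alone, a replicate block, thinning, leaving out replicates and libraries, and fitting only the groups compared. Promoter sequences are RefSeq's (GRCm38.p6).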

Additional observations from a re-analysis of the deposited data

Results flagged for a closer look

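Of the 42 genes that a test of the difference itself called for the departure of the pair from the added log2 effects of Zymosan and SeV, 16 are named here. Below the added effects were Irg1 (-1.26), Nampt (-1.39), Pnp (-1.32), Ifi203 (-2.29), Rtp4 (-1.92), Mx1 (-1.30), Irf7 (-1.35), Clec4e (-0.95), Gpd2 (-3.05), G530011O06Rik (-2.90), Srgap2 (-2.56), Clec5a (-2.54) and Med11 (-7.15, fitted against Ctrl libraries that all had 0 counts, so its size depends on the prior count). Above them were Atg7 (3.30), Smim14 (2.97) and Sepp1 (0.98). Most of these calls depended on the setting: of 20 to 22 alternatives, Atg7 lost its call in 18, Sepp1, Smim14, G530011O06Rik and Clec5a in 13 or 14, Gpd2 and Irf7 in 12, Med11 in 9, Srgap2 in 8, Clec4e in 6 and Rtp4 in 5, DESeq2 or single libraries left out among them.

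For the addition of Zymosan, the log2 effect with SeV minus that with cGAMP was -1.69 for Cxcl9, -2.14 for Ifnb1, -1.98 for Slco3a1, -1.06 for Serpina3g, 1.38 for Rassf4, 1.27 for Hvcn1 and 1.06 for H2-M2. For the addition of SeV, the effect with Zymosan minus that with PAM was -2.66 for G530011O06Rik, -1.32 for Cxcl10, -1.24 for Il6, -1.14 for Ccl4, -1.72 for Ptgs2, -1.15 for Il1rn and -3.10 for Pim1.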

How the results depend on the processing

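No tested difference of a named gene changed direction while called, whereas the split against Ctrl turned from 498 higher and 240 lower to 399 and 474 with library size alone, and the median departure of all genes from -0.05 to 0.08 with DESeq2 and 0.07 with RLE factors. Thinned to the smallest total, genes called against Zymosan went from 382 to 209, against SeV from 194 to 110, against Ctrl from 738 to 416, departures from added effects from 42 to 5, and genes above both from 0 to 1. With no fold threshold 303 genes passed against SeV, 4 were above both, 1 below both and 21 between. Fitting only the groups compared gave 15 between and 372 against Ctrl. Departures numbered 65 with no filter, 12 with DESeq2 and 21 with RLE factors. Leaving out replicates or libraries gave 256 to 397 genes against Zymosan, 81 to 176 against SeV, 488 to 742 against Ctrl, 0 to 2 above both, 0 to 1 below both, 0 to 9 between and 2 to 60 departures. The 1 gene above both with HMW became 4 with no fold threshold, 2 with only the groups compared, 0 with no filter, DESeq2, library size or thinning, and 0 to 1 with libraries left out. The 7 genes with an unequal effect of added Zymosan became 4 with DESeq2 and 0 to 11 with libraries left out. The 14 for added SeV became 6 with DESeq2, 7 with RLE factors, 4 with library size alone, 0 after thinning and 0 to 16 with libraries left out. The count lower than with Zymosan, 72 genes, was 39 with DESeq2 and 146 with library size alone. The cause of these shifts was not tested, apart from the fewer counts or samples that thinning and leaving out bring.

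Of 109 named genes, 21 changed their 2-fold call against Zymosan and 25 against SeV under some alternative, and none changed sign while called. Of those with an adjusted p under 0.05 at any fold, 23 of 69 against Zymosan and 27 of 60 against SeV lost it under some alternative, among them Irf7, Cxcl10, Clec7a and Cd274 against SeV. The alternatives for the pairs of Zymosan with cGAMP and of PAM with SeV were chosen after seeing the data. Same-numbered replicates correlated by -0.018 to 0.081 over 2629 genes and differently numbered ones by -0.080 to 0.028. Every SeV library correlated best with the pair library of its own number and Zymosan replicate 1 did not, all values were under 0.1, and the numbers were not taken as pairs. A replicate block gave 385 genes against Zymosan, 197 against SeV and 8 between.

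Depth limits low genes most: 1 count is 19.9 CPM in pair replicate 2, and Il12b, Il10 and Nos2, with 4, 2 and 9 counts over the pair libraries, passed the test against neither single.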
